A study of Mus musculus with 4 samples.

Results

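The genes of cholesterol and fatty acid synthesis were followed through 4 RNA-seq libraries of MLE-12, an immortalised mouse lung epithelial line with features of alveolar type 2 cells. The members are a given list of 36 genes of these pathways, of the 46078 genes in the count table, and all 36 were found by symbol and Ensembl identifier. They comprise 18 sterol enzymes, 5 regulators and carriers (Insig1, Stard4, Srebf1, Srebf2 and Scap) and 13 genes of the fatty acid arm. The series asks what Lingo1 does in epithelial wound repair. Its groups are MLE-12 cells labelled WT or Lingo1 KO, each taken unscratched or 24 hours after a scratch of the monolayer, with 1 library per condition. How the knockout was made, and whether it is 1 clone, is not given in the sources used here.

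Cells make cholesterol from acetyl-CoA through mevalonate, squalene and lanosterol, and make fatty acids from the same acetyl-CoA through malonyl-CoA. Both arms are targets of the SREBP transcription factors, which are carried from the endoplasmic reticulum by SCAP and held there by INSIG proteins when sterol is plentiful. SREBP-2, from Srebf2, is known mainly for the sterol enzymes, and SREBP-1, from Srebf1, mainly for the fatty acid arm. Alveolar type 2 cells use these lipids to build surfactant, which is rich in saturated phosphatidylcholine and also holds cholesterol.

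The libraries held 26903429 counts in WT unscratched, 27907279 in WT scratched, 29533746 in KO-labelled unscratched and 48333801 in KO-labelled scratched cells. All levels below are CPM, counts scaled to library depth with TMM factors and not to gene length, unless RPKM is named. Lingo1 itself was at 46.4 and 42.9 CPM in WT unscratched and scratched cells and at 41.2 and 41.4 CPM in the KO-labelled cells, so its transcript count does not check the label and genotypes are given here as labelled. Of 11 alveolar type 2 markers, 7 reached 1 CPM in a library, among them Nkx2-1 at 128 to 163 CPM and Abca3 at 165 to 185 CPM. Sftpc was at 5.68 and 6.42 CPM in WT and 20.6 and 19.8 CPM in KO-labelled cells, and Sftpa1 and Sftpd had no read in any library. Of the other marker lists, 5 of 7 epithelial, 2 of 6 fibroblast, 1 of 6 leukocyte, 1 of 4 endothelial and 0 of 8 adipocyte or hepatocyte genes reached 1 CPM. The endothelial one was Tek, at 179 to 219 CPM, while Cdh5 had no read, and the pan-leukocyte gene Ptprc had none either. The summed type 2 markers were 554 and 509 CPM in WT and 655 and 612 CPM in KO-labelled cells, unscratched and scratched, and the part of this difference in the results below was not tested.

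The bases just before the transcription start are shown for 6 members, because most sterol enzyme promoters share a short sequence that the list was not chosen on. The first 3 are the most abundant sterol enzymes per length with a single start in the RefSeq table (GRCm38.p6). Acat2 is the next of these and the only one of 15 matched sterol enzymes without a CCAAT box. Fasn and Fads2 stand for the fatty acid arm, one higher in the KO-labelled libraries and one level in all 4. Each line gives the 150 bases before the start, 5′ to 3′ on the gene's strand. Capitals mark CCAAT, the box bound by NF-Y, on either strand (ATTGG when it lies on the other), and in Hmgcs1 also the 1 match to TCACNCCAC, a form of the sterol regulatory element.
Cyp51 (chr5:4104698-4104847, minus strand): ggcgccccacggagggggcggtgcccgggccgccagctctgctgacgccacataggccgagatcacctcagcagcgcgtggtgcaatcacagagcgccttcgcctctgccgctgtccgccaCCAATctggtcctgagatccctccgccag
Hmgcs1 (chr13:119690201-119690350, plus strand): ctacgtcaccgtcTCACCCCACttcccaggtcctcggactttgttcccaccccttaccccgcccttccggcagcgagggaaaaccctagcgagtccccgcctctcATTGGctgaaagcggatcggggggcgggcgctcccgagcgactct
Msmo1 (chr8:64733579-64733728, minus strand): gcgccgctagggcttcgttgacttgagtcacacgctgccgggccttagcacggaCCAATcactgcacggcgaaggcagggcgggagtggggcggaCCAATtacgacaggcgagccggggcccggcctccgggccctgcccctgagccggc
Acat2 (chr17:12960726-12960875, minus strand): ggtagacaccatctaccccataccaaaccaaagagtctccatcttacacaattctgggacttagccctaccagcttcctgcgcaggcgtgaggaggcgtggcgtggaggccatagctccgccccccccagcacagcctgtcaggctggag
Fasn (chr11:120824548-120824697, minus strand): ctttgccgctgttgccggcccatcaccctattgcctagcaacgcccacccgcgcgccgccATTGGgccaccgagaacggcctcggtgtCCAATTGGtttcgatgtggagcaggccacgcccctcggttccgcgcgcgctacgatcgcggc
Fads2 (chr19:10101504-10101653, minus strand): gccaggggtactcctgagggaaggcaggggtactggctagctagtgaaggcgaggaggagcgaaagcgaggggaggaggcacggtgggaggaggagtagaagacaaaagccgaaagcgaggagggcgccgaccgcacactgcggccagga

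A promoter entry was found for 29 of the 36 members, and the search covered 300 bases, 250 before and 50 after each start, on both strands. CCAAT stood in at least 1 listed promoter of 14 of 15 sterol enzymes (93.3%), 3 of 4 regulators (75%) and 6 of 10 fatty acid genes (60%). Of all 27025 genes with a promoter entry, expressed in these cells or not, 41.06% had it. All members are expressed, and a share over expressed genes alone was not computed. In Cyp51 the box begins 29 bases before the start, in Hmgcs1 the printed one 45 bases before it, and in Msmo1 the nearest 55. Fasn has 3 matches, of which the pair at 62 and 59 bases before the start overlap as CCAATTGG. TCACNCCAC matched only Hmgcs1 among the members, against 1.436% of all genes, and the E-box CACGTG matched 3 sterol enzymes, 2 regulators (Insig1 and Scap) and 1 fatty acid gene (Elovl5), against 8.093% of all genes. A match is a string of letters and not a measured binding site, and its part in the levels below was not tested. Acat2, without a CCAAT box, was lowest in WT unscratched cells like most sterol enzymes. Idi1 and Tm7sf2, which have the box, were not. A link between the box and this order of libraries was not tested.

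Per length, the desaturase Scd2 was by far the most abundant member. Its deposited RPKM, which scales reads by gene length and library size, was 506 and 526 in WT unscratched and scratched cells and 679 and 621 in the KO-labelled cells. Insig1, which retains SCAP in the endoplasmic reticulum, followed at 177 to 201 RPKM and Srebf2 at 131 to 169. Fads1, the delta-5 desaturase, lay at 137 to 143 RPKM and Scd1 at 114 to 166, so these neighbours overlap in their order from library to library. The most abundant sterol enzymes were Cyp51, the lanosterol demethylase, at 113 to 134 RPKM, and Hmgcs1, the cytosolic HMG-CoA synthase, at 86.7 to 101. At the lower end stood Tm7sf2, a sterol reductase (mean 3.66 RPKM), Acss2, the cytosolic acetyl-CoA synthetase (3.51), and Lpin1, a phosphatidate phosphatase (1.60). In summed counts the fatty acid arm took 0.574% of the WT unscratched library and 0.727% of the KO-labelled unscratched library, and the sterol enzymes 0.204% and 0.234%.

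**Figure D1:**
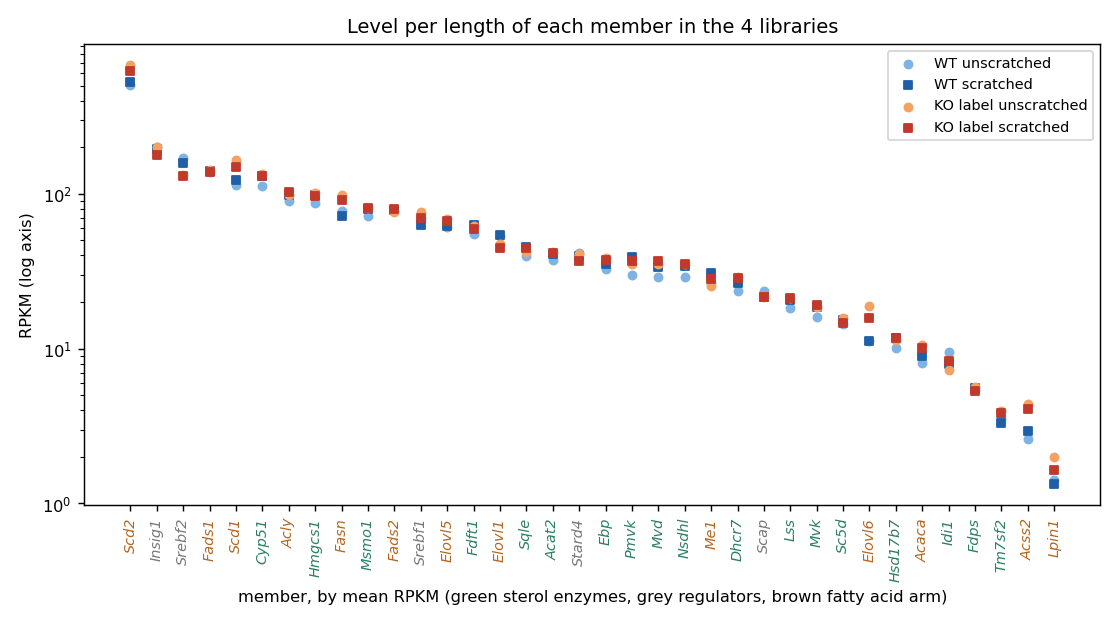
Deposited RPKM (log axis) of the 36 members, ordered by mean RPKM, with 1 point per library. Scd2 stands above all other members in each library at 506 to 679 RPKM, and Lpin1 is the lowest by its mean of 1.60 RPKM.

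Several of these levels are uncertain for reasons of counting. Fdps, farnesyl diphosphate synthase, shares 1124 exon bases on its own strand with the predicted gene Gm43738, and 4 processed pseudogenes match its transcript at 95% identity or more over at least 200 bases. Its level of 15.9 to 16.7 CPM may therefore miss reads. Tm7sf2 shares 532 exon bases on its own strand with Vps51. Acat2 has the paralog Acat3 (97.7% identity over 1477 bases) and a stretch that matches Tcp1 (98.7% over 445 bases). Idi1 has the pseudogenes Gm13502 (100% over 684 bases) and Gm35570. Acaca, Elovl6, Fdft1 and Me1 each have at least 1 processed pseudogene past the same limits, and Scd2 matches Scd1 at 95.5% over 623 bases. The sources used here do not say whether strand was used in counting. Reads of Fdft1 and Ctsb (774 shared exon bases on opposite strands), Acss2 and Gss (395), Cyp51 and Akap9 (166), Srebf1 and Rai1 (109) or Elovl1 and Cdc20 (53) may have been mixed.

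Ratios between libraries are given with 95% counting intervals, which cover counting error only, because no condition has a replicate. They are narrower in genes with more counts, and the shares of all genes given beside them are not matched for level. A gene was called higher when it was at least 25% higher, or lower when it was at least 20% lower (a ratio of 0.8), and the interval excluded 1. The words rose and fell are kept for genes that passed an additive model of genotype and scratch over all 4 libraries (edgeR's quasi-likelihood test, Benjamini-Hochberg adjusted over 12348 genes, false discovery rate 0.05). This model has 1 residual degree of freedom and no replicate cultures behind its p-values, which compare these libraries.

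The fatty acid arm was higher in the KO-labelled libraries, with the largest ratios for Acss2 and Elovl6. Without a scratch 7 of its 13 genes were called higher and 0 lower, where 8.93% of all genes tested were called higher and 7.56% lower. After the scratch 3 were called higher and 0 lower, against 7.28% and 5.47% of all genes. These 3 (Acss2, Fasn and Elovl6) were called in both comparisons, as were 4.58% of all genes. The median ratio of the arm was 1.26 without and 1.13 after the scratch, beside 1.01 and 1.00 over all genes. The unscratched and the scratched comparison of genotypes use no library in common. In 9 of the 13 genes both KO-labelled libraries lay above both WT libraries, an order seen in 28.6% of all genes. In 1 (Elovl1) both lay below, as in 27.6% of all genes. The order is not particular to this arm, since 9 of the 18 sterol enzymes had it and 0 had the reverse. The KO-labelled unscratched library was the highest for 9 of the 13 and for 8 of the 18 sterol enzymes (23.8% of all genes). Marker genes also differed with the KO label. Of the 7 alveolar type 2 markers at 1 CPM or more, Sftpb (25.4 and 22.9 CPM in WT, 107 and 93.5 CPM in KO-labelled cells), Sftpc and Etv5 rose in the model described above. Abca3, Nkx2-1, Lpcat1 and Napsa did not pass it, and Napsa was called lower after the scratch (0.615). The summed fibroblast markers were 2.18 and 2.19 CPM in WT and 5.34 and 4.99 CPM in KO-labelled cells. Pdgfrb had 0 and 1 counts in WT and 67 and 135 counts in KO-labelled cells, and Pdgfra was at 1.29 and 1.15 CPM against 2.30 and 1.94 CPM. Thy1, under 1 CPM in every library, went the other way, at 0.849 and 0.932 CPM in WT and 0.743 and 0.209 CPM in KO-labelled cells. Tcf21 had no read, Lum had at most 2 counts in a library, and Col1a2 had 1 read in all 4 libraries together. The part of these marker differences in the results on the members was not tested.

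Elovl6, which elongates palmitate to stearate (chromosome 3, 129532355 to 129638495, plus strand, mm10), was at 66.7 and 66.6 CPM in WT unscratched and scratched cells. It was at 112 and 94.6 CPM in the KO-labelled cells. The groups did not overlap, and the ratio was 1.68 (1.58 to 1.77) without and 1.42 (1.35 to 1.501) after the scratch. Elovl6 rose with the KO label by 0.62 ± 0.06 (log2, SE of the model; adjusted p = 7.48e-09, edgeR).

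Scd1 and Scd2, the stearoyl-CoA desaturases that put the first double bond into stearate and palmitate, lie near each other on chromosome 19 (44394455 to 44407879, minus strand, and 44293674 to 44306864, plus strand). Scd1 was at 548 and 594 CPM in WT and at 803 and 727 CPM in KO-labelled cells, unscratched and scratched, a ratio of 1.47 (1.44 to 1.497) and 1.22 (1.20 to 1.245). Scd2 was at 2748 and 2874 CPM against 3701 and 3400 CPM, a ratio of 1.35 (1.33 to 1.36) and 1.18 (1.17 to 1.19). For both genes the KO-labelled libraries were the upper pair. The difference was larger without the scratch, and only that one was called. Both rose in the model, Scd1 by 0.42 ± 0.07 (adjusted p = 2.99e-05, edgeR) and Scd2 by 0.34 ± 0.06 (adjusted p = 0.000367, edgeR).

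Fasn, the fatty acid synthase that makes palmitate (chromosome 11, 120805846 to 120824547, minus strand), showed the steadiest difference. It was at 777 and 724 CPM in WT and 981 and 921 CPM in KO-labelled cells, and the ratios were 1.26 (1.24 to 1.29) and 1.27 (1.251 to 1.29). Acaca, the acetyl-CoA carboxylase that supplies malonyl-CoA (chromosome 11, 84129672 to 84401651, plus strand), was at 76.0 and 84.8 CPM against 101 and 95.8 CPM. Its ratio of 1.33 (1.252 to 1.40) without the scratch was larger than the 1.13 (1.07 to 1.19) after it. Fasn rose by 0.34 ± 0.06 (adjusted p = 0.000181, edgeR) and Acaca by 0.29 ± 0.06 (adjusted p = 0.000529, edgeR).

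Acss2, which makes acetyl-CoA from acetate, and Lpin1, which forms diacylglycerol for lipid assembly, were low in all libraries. Acss2 was at 9.41 and 10.6 CPM in WT and 15.8 and 14.7 CPM in KO-labelled cells, a ratio of 1.68 (1.44 to 1.97) and 1.38 (1.21 to 1.59). Lpin1 was at 7.90 and 7.42 CPM against 11.1 and 9.27 CPM, a ratio of 1.40 (1.17 to 1.67) and 1.249 (1.06 to 1.48), the latter just under the call. Their intervals are the widest of the arm. Acss2 rose by 0.60 ± 0.10 (adjusted p = 6.54e-05, edgeR) and Lpin1 by 0.40 ± 0.11 (adjusted p = 0.00700, edgeR). DESeq2 did not call Lpin1.

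The rest of the arm differed less or in the other direction. Acly, the ATP citrate lyase that supplies cytosolic acetyl-CoA, had ratios of 1.10 (1.07 to 1.12) and 1.05 (1.03 to 1.08), and the polyunsaturated elongase Elovl5 1.13 (1.08 to 1.17) and 1.08 (1.04 to 1.11). Neither passed the model. The delta-6 desaturase Fads2 was level, at 242, 247, 241 and 251 CPM in WT unscratched, WT scratched, KO-labelled unscratched and KO-labelled scratched cells, and Fads1 lay between 476 and 493 CPM. Elovl1, which elongates saturated chains past those of Elovl6, was lower in the KO-labelled cells, at 95.6 and 98.3 CPM against 85.2 and 81.8 CPM. It fell by 0.22 on the log2 scale (SE 0.05, adjusted p = 0.00394, edgeR), although neither ratio was called and DESeq2 did not call it. Me1, the malic enzyme that yields NADPH, had ratios of 0.963 (0.910 to 1.02) and 0.915 (0.873 to 0.959).

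**Figure D2:**
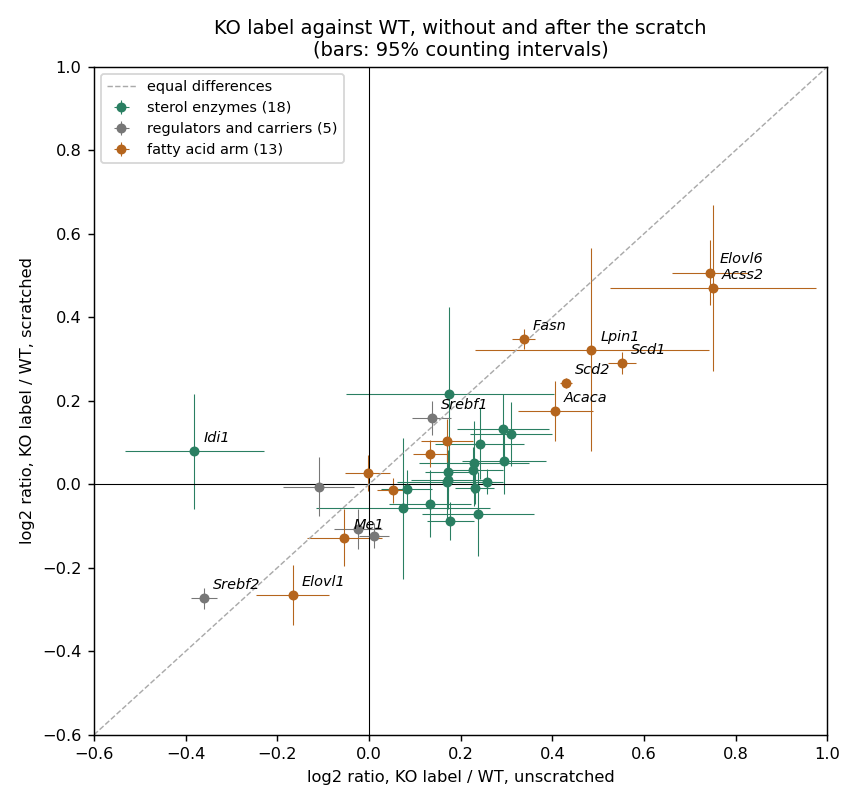
Log2 ratio of each member between the KO-labelled and the WT library, unscratched (x axis) and scratched (y axis), with 95% counting intervals. The axes share no library. Elovl6 and Acss2 lie farthest to the upper right, Srebf2 and Elovl1 to the lower left, and most sterol enzymes sit right of 0 on the x axis and near 0 on the y axis.

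The lowest level of the sterol enzymes was nearly always in the WT unscratched library. That library was the lowest of the 4 for 16 of the 18 enzymes, and also for 7 of the 13 fatty acid genes. It was the lowest for 31.9% of all genes tested. In the sum over the sterol enzymes the other 3 libraries lay close together, though not in each gene. Dhcr7, for example, was at 65.6 CPM in WT unscratched and 74.6 CPM in WT scratched cells. In KO-labelled unscratched and scratched cells it was at 81.3 and 81.0 CPM. The summed level of the 18 genes was 2024 CPM in WT unscratched cells, against 2301 CPM in WT scratched, 2331 CPM in KO-labelled unscratched and 2313 CPM in KO-labelled scratched cells. The WT scratch comparison and the unscratched genotype comparison both contain the WT unscratched library, so their values are given side by side and are not independent.

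In numbers, the median ratio of the sterol enzymes was 1.14 for the scratch in WT and 1.15 for the KO label without a scratch. For the comparisons that do not use the WT unscratched library it was 0.999 for the scratch in KO-labelled cells and 1.01 for the KO label after the scratch. The counting interval lay above 1 for 14 of 18 enzymes in WT after the scratch (22.3% of all genes) and for 15 in the unscratched KO-labelled cells (26.8% of all genes). It lay above 1 for 2 enzymes after the scratch in KO-labelled cells (18.2% of all genes) and for 4 in the KO label after the scratch (24% of all genes). Such intervals exclude 1 more readily in genes with more counts, and these shares are over genes of all levels. The differences were small, and only Pmvk (higher, WT scratch) and Idi1 (lower, KO label without a scratch) were called.

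Along the mevalonate steps, Hmgcs1 (chromosome 13, 119690379 to 119708260, plus strand) was at 299 CPM in WT unscratched cells and at 340, 351 and 337 CPM in WT scratched, KO-labelled unscratched and KO-labelled scratched cells. Acat2, the thiolase that precedes it, was at 84.2 CPM and then 92.4, 94.8 and 93.2 CPM in the same order. Mevalonate kinase, Mvk, was at 37.7 CPM and then 44.2, 44.1 and 45.8 CPM. All 3 genes have 1 low library and 3 alike. Pmvk, phosphomevalonate kinase, was at 35.6 CPM and then 46.7, 42.0 and 44.4 CPM, and its WT scratch ratio of 1.31 (1.20 to 1.42) was the only one of the members called for the scratch. Mvd, the decarboxylase that follows, was at 52.8 CPM and then 61.5, 64.6 and 67.4 CPM. Mvd rose with the KO label by 0.21 ± 0.05 (adjusted p = 0.00537, edgeR).

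Idi1, the isomerase that makes dimethylallyl diphosphate (chromosome 13, 8885501 to 8892451, plus strand), ran against the group. It was highest in WT unscratched cells at 28.7 CPM and stood at 24.0, 22.1 and 25.4 CPM in WT scratched, KO-labelled unscratched and KO-labelled scratched cells. The KO label without a scratch had a ratio of 0.768 (0.691 to 0.853), and after it 1.06 (0.960 to 1.16). Its scratch ratio was 0.836 (0.753 to 0.928) in WT and 1.15 (1.04 to 1.27) in KO-labelled cells. Fdps, at the next step, differed by no more than its counting error in any comparison.

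From squalene to cholesterol the WT unscratched library was again the lowest, except for Tm7sf2, while the highest library differed from gene to gene. Fdft1, the squalene synthase, was at 202 CPM in WT unscratched cells and 234, 229 and 220 CPM in the other libraries in the order above. Sqle, the squalene monooxygenase that limits the later pathway, was at 177 CPM and then 202, 188 and 200 CPM, and the lanosterol synthase Lss at 127 CPM and then 145, 148 and 149 CPM. Cyp51 (chromosome 5, 4081145 to 4104746, minus strand) was at 442 CPM and then 511, 528 and 513 CPM. Its ratios were 1.16 (1.13 to 1.19) for the scratch in WT and 1.20 (1.17 to 1.22) for the KO label without a scratch, against 0.972 (0.953 to 0.992) and 1.00 (0.984 to 1.03) in the comparisons without the WT unscratched library. The C4 demethylation enzymes Msmo1, Nsdhl and Hsd17b7 had WT scratch ratios of 1.12, 1.19 and 1.17 and KO-labelled scratch ratios of 1.01, 1.01 and 1.04. Ebp, a sterol isomerase, Sc5d, a sterol desaturase, and Dhcr7, which makes cholesterol from 7-dehydrocholesterol, had KO-label ratios of 1.18, 1.10 and 1.24 without the scratch and 1.07, 0.968 and 1.09 after it.

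Of the 18 sterol enzymes 4 rose with the KO label and 0 fell in the model: Mvd, Dhcr7 (0.21 ± 0.05, adjusted p = 0.00432, edgeR), Nsdhl (0.17 ± 0.06, adjusted p = 0.0251, edgeR) and Ebp (0.17 ± 0.05, adjusted p = 0.0221, edgeR). Among all genes 13.7% rose and 12.1% fell. Without a scratch the KO-label ratios of Mvd, Dhcr7, Nsdhl and Ebp were 1.22, 1.24, 1.23 and 1.18, and after it 1.10, 1.09, 1.04 and 1.07. DESeq2 called none of the 4. Tm7sf2 had KO-label ratios of 1.13 (0.965 to 1.32) and 1.16 (1.01 to 1.34), from about 11 to 12 CPM, and was lowest in WT scratched cells.

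**Figure D3:**
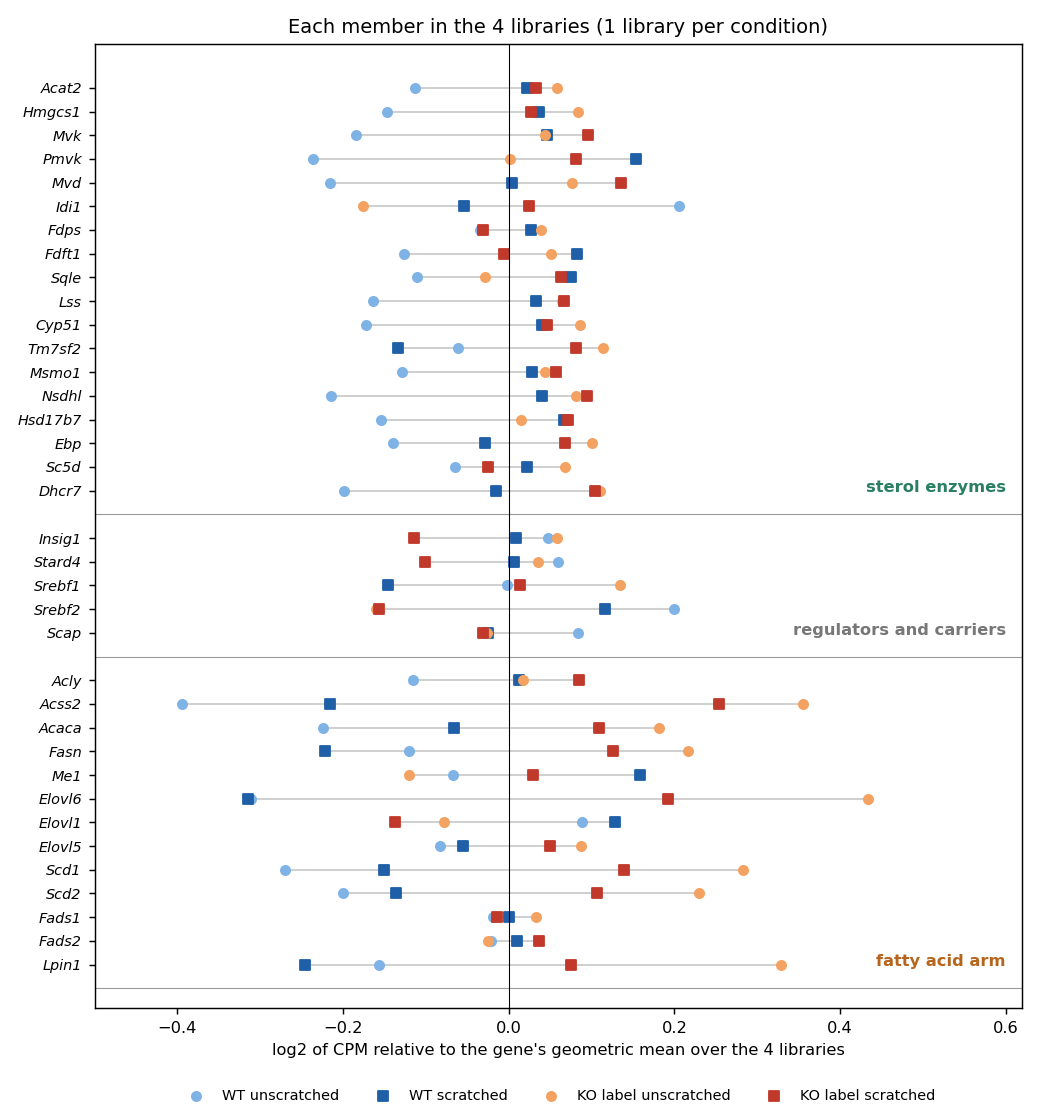
Log2 of CPM relative to each gene's geometric mean over the 4 libraries, 1 row per member and 1 point per library, grouped by arm. The WT unscratched point is the leftmost for 16 of 18 sterol enzymes and 7 of 13 fatty acid genes. Both KO-labelled points lie right of both WT points in 9 of 18 sterol enzymes and 9 of 13 fatty acid genes.

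Of the 5 regulators and carriers 0 were lowest in WT unscratched cells, unlike most sterol enzymes. Srebf2 (chromosome 15, 82147181 to 82205379, plus strand), the gene of the main SREBP of sterol synthesis, was lower in the KO-labelled libraries, at 856 and 808 CPM in WT against 667 and 669 CPM. The groups did not overlap, with ratios of 0.779 (0.765 to 0.794) without and 0.828 (0.814 to 0.842) after the scratch. Srebf2 fell by 0.32 on the log2 scale (SE 0.06, adjusted p = 0.000407, edgeR). Srebf1 (chromosome 11, 60199089 to 60222581, minus strand) was at 299 and 271 CPM in WT and at 329 and 303 CPM in KO-labelled cells. Its KO-label ratios were 1.10 (1.07 to 1.13) and 1.12 (1.09 to 1.15), and it missed the threshold of the model (0.15 ± 0.06, adjusted p = 0.0544, edgeR). Gene counts do not separate the SREBP-1a and SREBP-1c transcripts of Srebf1.

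Scap, the escort of both SREBPs, was at 98.7 CPM in WT unscratched cells and 91.2 to 91.6 CPM in the other libraries. Insig1 and Stard4, both known SREBP targets, were lowest in KO-labelled scratched cells. Insig1 was at 536, 522 and 540 CPM in WT unscratched, WT scratched and KO-labelled unscratched cells and at 479 CPM in KO-labelled scratched cells. Stard4, a carrier of cholesterol between membranes, was at 210, 203, 207 and 188 CPM in the same order. Neither was called nor passed the model. None of the 5 regulators and carriers had an interval above 1 after the scratch in either genotype, and 4 in WT and 3 in KO-labelled cells had an interval below 1 (14.9% and 13.9% of all genes).

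For the scratch, 1 of 36 members was called higher in WT (Pmvk) and 0 in KO-labelled cells, and 0 were lower in either. Among all genes 2.31% and 1.47% were called higher and 4.15% and 2.16% lower, so the count is near the background. By the counting interval alone, 19 members lay above 1 and 6 below in WT (22.3% and 14.9% of all genes), and 5 and 14 in KO-labelled cells (18.2% and 13.9%). In the model 0 of the 36 members rose or fell with the scratch, where 1.43% and 1.4% of all genes did. At an unadjusted p under 0.05 edgeR's quasi-likelihood test had 7 members higher and 2 lower, and DESeq2 0 and 1. The share of all genes at that cutoff is not given here, so these counts are not read as a result about the members. DESeq2 also called 0 members after adjustment. Me1 came nearest, with scratch ratios of 1.17 (1.11 to 1.23) in WT and 1.11 (1.06 to 1.17) in KO-labelled cells (0.19 ± 0.05 in the model, adjusted p = 0.0578, edgeR).

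The arms differed in where small scratch differences lay. In WT the median scratch ratio was 1.14 for the sterol enzymes, 1.03 for the fatty acid arm and 0.944 for the regulators and carriers. In KO-labelled cells these medians were 0.999, 0.951 and 0.919, and over all genes 1.01 in both genotypes. Within the KO-labelled pair, Elovl6 was at 0.846 (0.809 to 0.885) times its unscratched level, Scd1 at 0.905 (0.891 to 0.921) and Scd2 at 0.919 (0.912 to 0.926). In WT the same genes stood at 0.997 (0.934 to 1.06), 1.09 (1.06 to 1.11) and 1.05 (1.04 to 1.06). The scratch ratio in KO-labelled cells divided by that in WT was below 1 for 29 of 36 members and 6603 of all 12348 genes. The counting interval lay below 1 for 23 members (15.1% of all genes), of which 15 were sterol enzymes. This ratio of responses uses the WT unscratched library, which was the lowest for 16 of the 18 sterol enzymes. It is therefore not independent of that low library. Only Idi1 was called in this measure, at 1.38 (1.20 to 1.58), where 3.19% of all genes were called higher and 2.19% lower. With 1 library per condition this difference of responses has no test over cultures.

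**Figure D4:**
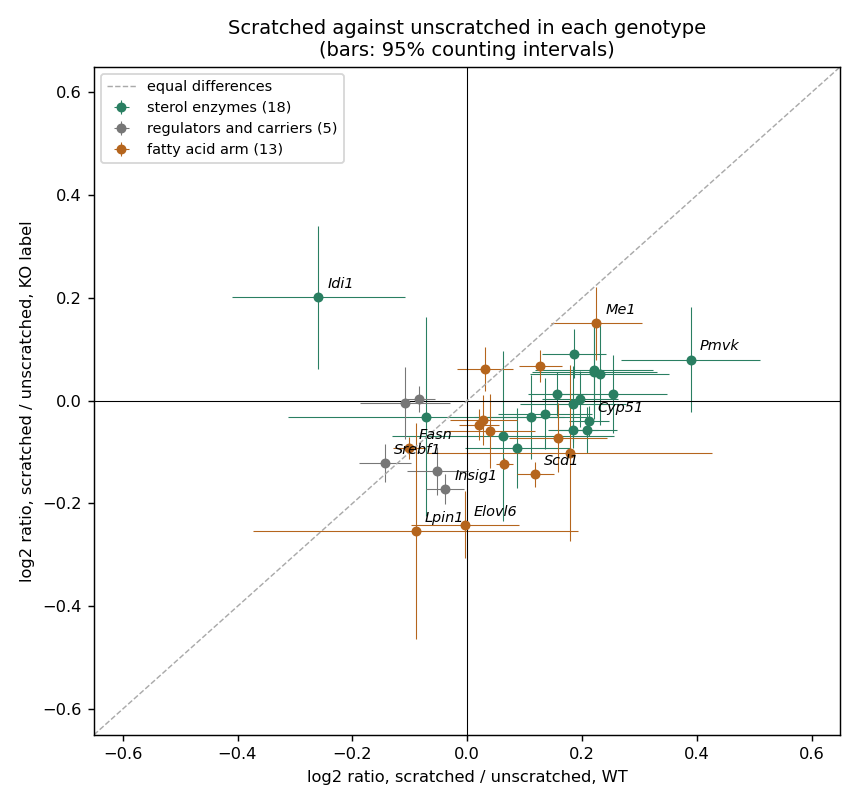
Log2 ratio of each member between the scratched and the unscratched library, in WT (x axis) and KO-labelled cells (y axis), with 95% counting intervals. Sterol enzymes lie mostly right of 0 on the x axis and near 0 on the y axis. Pmvk is the farthest right and Idi1 the only sterol enzyme in the upper left.

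**Figure D5:**
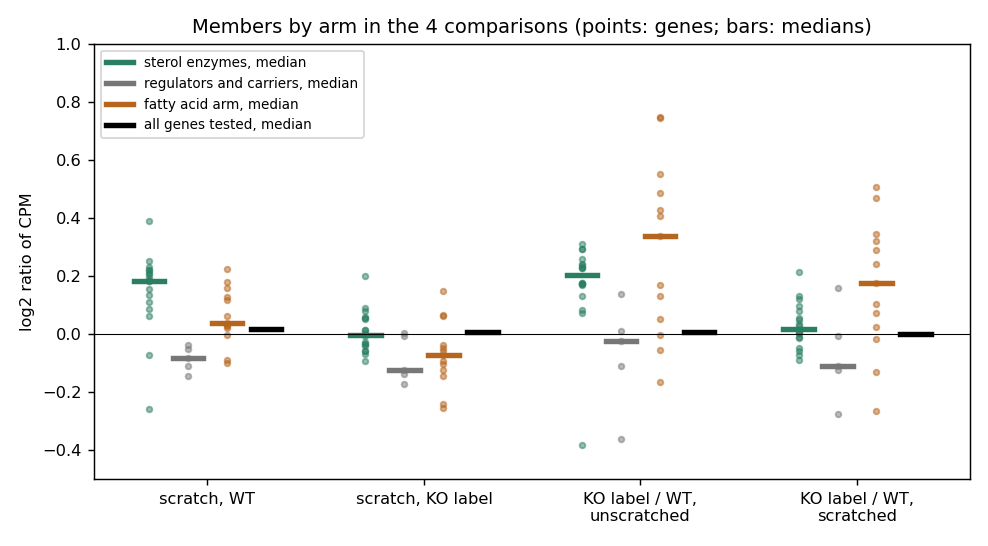
Log2 ratio of CPM for each member (points) and the median of each arm (bars) in the 4 comparisons, with the median of all genes tested in black. The sterol median is high where the WT unscratched library is the denominator and near 0 elsewhere, and the fatty acid median is above 0 in both genotype comparisons.

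Other genes of the sterol pathway were taken from lists that hold none of the members. Of 11 other sterol synthesis genes 10 were tested, and their median KO-label ratios were 1.01 without and 0.895 after the scratch. The WT unscratched library was the lowest for 2 of these 10, against 16 of the 18 sterol enzymes and 31.9% of all genes. Por, the reductase that feeds electrons to Cyp51 and Sqle, was at 165 and 169 CPM in WT and 145 and 150 CPM in KO-labelled cells. It fell by 0.18 on the log2 scale (SE 0.06, adjusted p = 0.0212, edgeR). Cyb5r3, a cytochrome b5 reductase, was at 213 to 233 CPM and did not pass the model. Of 12 tested genes of sterol sensing and turnover 1 rose with the KO label and 0 fell, where 13.7% and 12.1% of all genes did. This was Mbtps2, the site-2 protease that releases SREBPs (0.16), named after its value was seen. Mbtps1, the site-1 protease, was at 423 to 446 CPM in all libraries.

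Among 11 tested genes of sterol uptake, transfer, storage and efflux 3 rose with the KO label and 0 fell, again beside 13.7% and 12.1% of all genes. Abca1, the pump that exports cholesterol to apolipoproteins (chromosome 4, 53030787 to 53159895, minus strand), was at 3.10 and 2.19 CPM in WT and 11.3 and 9.50 CPM in KO-labelled cells. The libraries did not overlap, and the ratios of 3.65 (2.87 to 4.70) and 4.34 (3.3197 to 5.77) were larger than those of any member. Abca1 rose by 1.99 ± 0.13 (adjusted p = 2.76e-11, edgeR). Lrp8, a lipoprotein receptor, was the gene of this list called higher after the scratch in both genotypes, at 1.35 (1.19 to 1.52) in WT and 1.26 (1.14 to 1.39) in KO-labelled cells, and it rose with the scratch in the model (0.38, adjusted p = 0.0128, edgeR).

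Of 19 further fatty acid synthesis genes tested, 8 rose and 3 fell with the KO label, beside 13.7% and 12.1% of all genes. By the call on ratios 4 were higher and 3 lower without a scratch (8.93% and 7.56% of all genes) and 1 and 0 after it (7.28% and 5.47%). Their median ratios were 1.17 without and 1.14 after the scratch. Scd4, another stearoyl-CoA desaturase beside Scd1, was at 1.51 and 1.79 CPM in WT and 3.08 and 2.67 CPM in KO-labelled cells, with ratios of 2.03 (1.39 to 3.02) and 1.49 (1.07 to 2.11). The elongation cycle partners Tecr and Hsd17b12, which complete the steps that ELOVL enzymes begin, had ratios of 1.14 and 1.18 without and 1.14 and 1.17 after the scratch. Tecr rose by 0.19 ± 0.06 (adjusted p = 0.0142, edgeR) and Hsd17b12 by 0.23 ± 0.06 (adjusted p = 0.00380, edgeR). The 3 that fell were Mid1ip1, Elovl4 and Elovl7 (-0.23, -0.34 and -0.37 on the log2 scale), named after their values were seen. Elovl4 and Elovl7 elongate long and very long chains. Fads3, a relative of Fads1 and Fads2, was at 224 and 245 CPM in WT and 232 and 262 CPM in KO-labelled cells.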

How the data were processed

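RNA was sequenced from 4 MLE-12 libraries, 1 per condition, with a stranded mRNA preparation per the labels. The authors deposited raw counts for 46078 Ensembl genes and RPKM values for 14844 genes, 161 of them without a value. Per the submitters' processing notes, the build was mm10 and the tools included STAR 2.7.9a, Trimmomatic 0.39, edgeR 3.32.1 and HTSeq 0.11.3. No source used here gives their roles, settings or annotation release. Columns were matched by genotype and by S for scratched, and N was taken to mean unscratched, the only remaining condition.

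Counts were TMM-scaled, and the 12348 genes with at least 1 CPM in at least 1 library were tested, all 36 members among them. Ratios carry exact 95% Clopper-Pearson intervals on the split of the counts. The difference of scratch responses has a normal interval on the log scale. Reads carry no molecular identifiers, so intervals may be too narrow. The additive model used edgeR 4.0.16 in R 4.3.3 (24.2 prior degrees of freedom, 5.491% biological coefficient of variation), with DESeq2 1.42.0 as an alternative. Other steps used scipy 1.17.1, pandas 2.3.3, numpy 2.4.6 and matplotlib 3.10.9 in Python 3.11.15. Symbols came from the RPKM table and then a list of gene names that matched 45143 identifiers, positions and overlaps from GENCODE M21 (same build), and promoters from RefSeq.

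The members and lists were chosen with earlier results of these data known. From the other lists the text names genes called the same way in both genotype or both scratch comparisons, and up to 3 abundant genes a list. One result of this rule is not reported here. Alternatives were total-count and DESeq2 scaling, RPKM with pseudocounts of 0.1 and 1, other filters and other folds.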

Additional observations from a re-analysis of the deposited data

Results flagged for a closer look

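Idi1 was the only member whose scratch response differed between the genotypes by at least 25%. The KO-labelled scratch ratio divided by the WT scratch ratio was 1.38 (95% counting interval 1.20 to 1.58), from a ratio of 0.836 in WT and 1.15 in KO-labelled cells. The difference was not tested over cultures, because each condition is 1 library. The count of Idi1 is also uncertain, since the pseudogene Gm13502 matches 684 bases of its transcript at 100% identity.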

How the results depend on the processing

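No called value reversed under the alternatives. The ratios that crossed 1 under another scaling or RPKM numbered 10, all uncalled and within 0.0094 of 1, such as Lss for the KO-labelled scratch (1.00, and 0.991 with total counts). The medians of the 3 groups of members kept their sign in the 4 comparisons under total-count scaling, DESeq2 size factors, RPKM with either pseudocount and a filter of 5 CPM. For the KO label without a scratch, the fatty acid median ranged from 1.23 to 1.26 and the sterol median from 1.14 to 1.15. Counts of called members depend on the fold. At 1.5-fold, 2 members remained called higher for the KO label without a scratch, and 0 were lower. At that fold 0 were called in the KO label after the scratch, the WT scratch response or the difference of responses. At 2-fold, 0 were called in any of these. Shares of all genes at 1.5-fold and 2-fold are not given here. With DESeq2 in place of edgeR, 6 members rose (Acaca, Fasn, Scd2, Acss2, Scd1 and Elovl6) and 1 fell (Srebf2) with the KO label, in place of 11 and 2. Over all 12348 genes DESeq2 called 560 and 408, in place of 1694 and 1496. For the scratch, 2 members rose without a filter (Pmvk and Me1) and 1 with a filter of 5 CPM (Me1), in place of 0. Over all genes kept by each filter, 225 and 207 rose with the scratch, in place of 177. The cause was not tested. Single ratios moved past their counting interval only for Scd2 with total counts (0.909 for the KO-labelled scratch and 1.17 for the KO label after it) and for Abca1 with RPKM (3.27 after the scratch). No paired analysis was possible because each condition has 1 sample, and for the same reason no library can be left out of the additive model, which would keep no residual degree of freedom. With 1 library per condition, variation between cultures or preparations cannot be told apart from the groups. Depth limits Lpin1, Acss2 and Tm7sf2 most.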

Other observations

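Genes around the supply of NADPH, the reductant of both arms, were tested as a list of 10 genes. The list also holds Pgls, Taldo1 and Tkt of the pentose phosphate pathway, which do not themselves yield NADPH. In the additive edgeR model 4 of the 10 genes rose with the KO label (Pgls, Tkt, Pgd and Mthfd1) and 2 with the scratch (Pgd and Mthfd1). With either, 0 fell. Pgd and Mthfd1 were named after their values were seen. Among all genes 13.7% rose and 12.1% fell with the KO label, and 1.43% and 1.4% with the scratch. Tkt, a transketolase of the pentose phosphate pathway, was at 173 and 181 CPM in WT and 219 and 231 CPM in KO-labelled cells, with ratios of 1.26 (1.22 to 1.31) and 1.27 (1.23 to 1.32). It rose by 0.34 ± 0.06 (adjusted p = 6.79e-05, edgeR). Idh1, the cytosolic isocitrate dehydrogenase, had the pattern of libraries seen in the sterol enzymes, at 122 CPM in WT unscratched cells and 141, 145 and 139 CPM in WT scratched, KO-labelled unscratched and KO-labelled scratched cells. The WT unscratched library was the lowest for 9 of these 10 genes, against 31.9% of all genes.

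Of 17 tested genes of glycerolipid and surfactant lipid synthesis 4 rose and 2 fell with the KO label (13.7% and 12.1% of all genes). Their median ratios of 1.07 and 1.01 lay nearer to those of all genes than the medians of the fatty acid arm. Agpat2, which makes phosphatidic acid, was at 8.93 and 9.28 CPM in WT and 11.3 and 13.3 CPM in KO-labelled cells, and it rose by 0.43 ± 0.10 (adjusted p = 0.00269, edgeR). Lpcat3, which puts polyunsaturated chains into phospholipids, rose by 0.18 ± 0.06 (adjusted p = 0.0275, edgeR). Lpcat1, the acyltransferase of saturated surfactant phosphatidylcholine, was level at 144 to 148 CPM in all 4 libraries.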
